A study of Mus musculus with 8 samples.

Results

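The loci examined here were those of 9 mouse receptors for chemoattractants: *Ccr1*, *Ccr2*, *Ccr7*, *Cx3cr1*, *Cxcr2*, *Cxcr4*, *C5ar1*, *C3ar1* and *Fpr1*. A ChIP-Seq peak was taken as belonging to one of them when its centre lay in the annotated gene body (GENCODE, mm10) or within 20 kb of it. By this rule 127 of the 67673 peaks in 4 deposited lists were at these loci. They comprised 12 of 5288 PU.1 peaks and 46 of 26119 CEBPA peaks in the line without wild-type PU.1, and 33 of 15683 PU.1 peaks and 36 of 20583 CEBPA peaks in the line with it.

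Both lines were clones of X18.1.1, a radiation-induced murine AML cell line in which one *Pu.1* allele is deleted and the other carries mutations that include the DNA-binding domain. One clone was transduced with an empty retroviral vector (EV, designated PU.1−) and therefore had only mutant PU.1. The other was transduced with PuER, in which wild-type PU.1 is fused to an oestrogen receptor domain responsive to 4-hydroxytamoxifen (OHT), and was designated PU.1+. It also kept the mutant allele, and the antibody against PU.1 detects mutant PU.1 protein as well as the fusion. Both clones were incubated in 100 nM OHT for 2 h, and DNA was recovered with antibodies against PU.1 and against CEBPA. The lines were single clones obtained by limiting dilution, so a difference between clones and a difference due to PuER cannot be told apart.

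There was 1 library for each antibody and line and no replicate, and the lines were therefore not compared by a test. Each peak was an interval of 400 bp without a height or a score, and the depth of each library is unknown. A peak that is missing from a list may be binding below the calling threshold, and its absence from the list is reported here only as a call. Each share is followed by its exact 95% interval (Clopper-Pearson), which covers only the error of counting. For each antibody, a peak of one line that had at least 1 bp in common with a peak of the other was taken as shared. An unshared peak of PU.1+ is called new, and an unshared peak of PU.1− is called lost. These names describe calls and not measured binding.

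Chemoattractant receptors are G protein-coupled receptors that sense gradients of chemokines, complement fragments or bacterial peptides and steer migrating leukocytes through Gi proteins, phosphoinositide 3-kinase and Rac. Their pattern of expression changes as progenitors leave the bone marrow and mature: CXCR4 holds progenitors and immature granulocytes in the marrow, CCR2 marks inflammatory monocytes, CX3CR1 marks patrolling monocytes and many tissue macrophages, and FPR1, C5AR1 and CXCR2 guide neutrophils. PU.1 is an ETS-family factor and CEBPA a basic leucine zipper factor, and both are required in the myeloid lineage in which these receptors are used.

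New PU.1 peaks were found at each of the 9 loci, 22 in total, and they fell into those that lay on a CEBPA peak and those that did not. At 5 loci, *Cxcr2*, *C3ar1*, *Cx3cr1*, *C5ar1* and *Fpr1*, 1 new PU.1 peak lay on a CEBPA peak that was present in both lines. The central 80 bp of 4 of these peaks are shown because they are the places at which a PU.1 call was added to an existing CEBPA call. Sequences are given 5′ to 3′ on the plus strand of GRCm38 (mm10). Capitals mark exact matches, on either strand, to the words searched: GGAAGT (ETS), GAGGAA (the left part of the PU.1 site), TTGCNNAA (CEBP) and TGTGGT or TGCGGT (RUNX).

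Cxcr2 chr1:74178720-74178799 (+): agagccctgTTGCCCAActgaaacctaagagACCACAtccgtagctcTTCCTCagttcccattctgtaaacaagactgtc
C3ar1 chr6:122863056-122863135 (+): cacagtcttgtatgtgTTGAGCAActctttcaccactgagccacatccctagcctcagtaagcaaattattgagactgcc
Cx3cr1 chr9:120043347-120043426 (+): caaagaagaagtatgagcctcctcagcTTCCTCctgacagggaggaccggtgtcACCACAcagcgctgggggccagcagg
C5ar1 chr7:16257961-16258040 (+): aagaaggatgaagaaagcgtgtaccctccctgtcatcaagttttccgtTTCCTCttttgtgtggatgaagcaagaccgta

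The *Cxcr2* sequence had a CEBP word, a RUNX word and GAGGAA, and the *C3ar1* sequence had a CEBP word alone. The *Cx3cr1* sequence had GAGGAA and a RUNX word, and the *C5ar1* sequence had GAGGAA alone. None of the 4, nor the *Fpr1* peak that is not printed, held GGAAGT in the central 80 bp.

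The next 8 sequences come from the 17 new PU.1 peaks that overlapped no CEBPA peak of PU.1+, and are shown to give the other 4 loci and further peaks of *Cx3cr1* and *Fpr1*. Peaks outside untranslated regions that held a searched word were taken first, with at least 1 peak for each gene.

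Ccr1 chr9:123953719-123953798 (+): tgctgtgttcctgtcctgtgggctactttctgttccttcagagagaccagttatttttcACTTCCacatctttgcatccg
Ccr2 chr9:124090577-124090656 (+): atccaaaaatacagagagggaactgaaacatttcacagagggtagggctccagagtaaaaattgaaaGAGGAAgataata
Ccr7 chr11:99168098-99168177 (+): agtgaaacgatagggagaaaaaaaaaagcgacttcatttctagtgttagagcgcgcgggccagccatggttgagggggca
Cx3cr1 chr9:120034474-120034553 (+): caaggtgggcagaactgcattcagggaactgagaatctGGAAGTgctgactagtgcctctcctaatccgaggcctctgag
Cx3cr1 chr9:120069915-120069994 (+): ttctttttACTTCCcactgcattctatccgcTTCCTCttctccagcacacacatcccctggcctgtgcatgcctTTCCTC
Cxcr4 chr1:128608255-128608334 (+): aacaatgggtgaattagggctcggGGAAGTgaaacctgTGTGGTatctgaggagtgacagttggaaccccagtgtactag
Fpr1 chr17:17865302-17865381 (+): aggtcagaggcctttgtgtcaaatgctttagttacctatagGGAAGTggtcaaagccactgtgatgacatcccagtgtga
Fpr1 chr17:17901886-17901965 (+): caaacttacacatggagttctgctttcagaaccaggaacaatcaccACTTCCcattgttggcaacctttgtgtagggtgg

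By this choice GGAAGT was present in 6 of these 8, whereas it was in 8 of all 17. The 6 were at *Ccr1*, *Cx3cr1* (both peaks), *Cxcr4* and *Fpr1* (both peaks). The *Ccr2* sequence held GAGGAA, and the *Ccr7* sequence held none of the words searched.

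The number of PU.1 peaks at the receptor loci was 12 for PU.1− and 33 for PU.1+, a ratio of 2.75, and the ratio of the whole lists was 2.97. Of the 33 peaks in PU.1+, 22 (66.7%, 48.2–82.0%) were new, against 81.1% of all PU.1+ peaks. Of the 12 in PU.1−, 1 (8.33%, 0.211–38.5%) was lost, against 43.8% of all PU.1− peaks, and the other 11 were shared. The first interval includes the share of the whole list and the second lies below it. The gain of PU.1 calls at these loci was thus of the size seen in the list as a whole, whereas nearly every PU.1− call at them was called again in PU.1+. Lost PU.1 calls were also few in related gene lists read by the same 20-kb rule. They were 2 of 7 PU.1− peaks at 19 other chemoattractant receptors with windows apart from these loci. At 20 ligands they were 0 of 7, and at 19 signalling genes 4 of 16. Peaks in overlapping windows can count more than once in these lists, and the difference from them was not tested. The centres of the 11 shared PU.1 peaks lay a median of 14 bp apart between the lines (range 1 to 89 bp).

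CEBPA calls were fewer in PU.1+. There were 46 CEBPA peaks at the loci in PU.1− and 36 in PU.1+, a ratio of 0.783, and the ratio of the whole lists was 0.788. Of the 46, 11 (23.9%, 12.6–38.8%) were lost, against 30.7% of all, and 35 were shared. A single CEBPA peak (2.78%, 0.0703–14.5%) was new, against 12.1% of all. Both intervals include the share of the whole list.

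**Figure D1:**
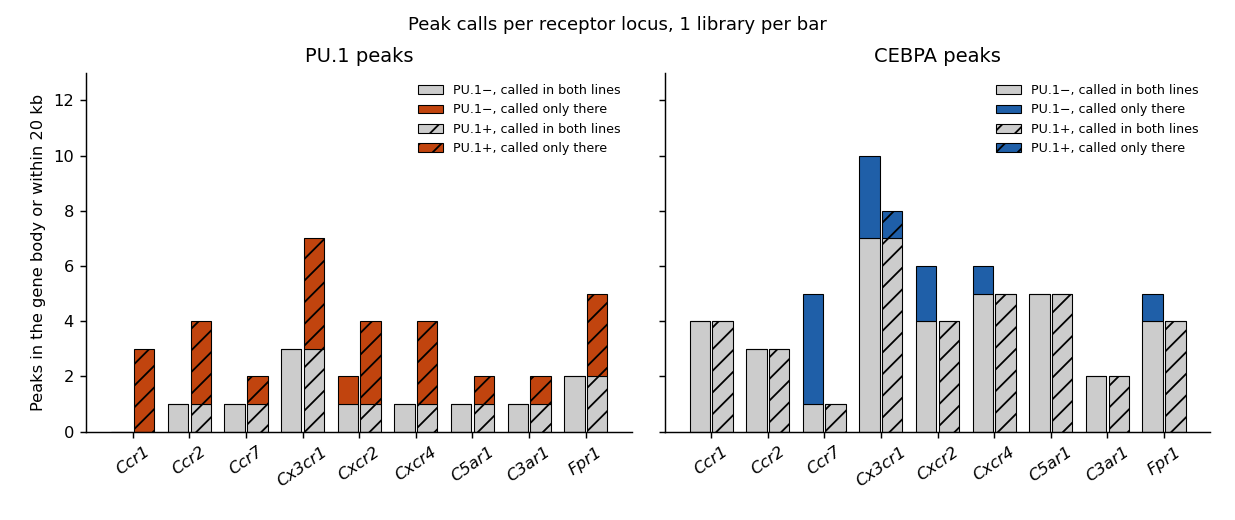
Number of peaks (y axis) at each receptor locus (x axis) for PU.1 (left) and CEBPA (right), with plain bars for PU.1− and hatched bars for PU.1+, grey for peaks called in both lines and colour for peaks called in that line only. Every locus had at least 1 coloured segment for PU.1 in PU.1+, and for CEBPA the coloured segments in PU.1− were at *Ccr7*, *Cx3cr1*, *Cxcr2*, *Cxcr4* and *Fpr1*.

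Read over genes, a new PU.1 peak was present at 9 of 9 receptor genes, and at 36.7% of the 21951 protein-coding genes by the same 20-kb rule. A PU.1 peak of any class was present at 9 of 9 in PU.1+ and at 8 of 9 in PU.1−, *Ccr1* being the exception, against 41.4% and 23.7% of all genes. A lost PU.1 peak was present at 1 of 9, *Cxcr2*, against 13.7% of all genes. CEBPA peaks were present at 9 of 9 in both lines, against 56.5% of all genes in PU.1− and 51.3% in PU.1+. Lost CEBPA peaks were at 5 of 9, against 30.1%, and new ones at 1 of 9, against 11.4%. All 4 lists had a peak at 8 of the 9 receptors and at 16.3% of all protein-coding genes.

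Because longer genes have larger windows, the same counts were made over 5850 protein-coding genes with bodies from 4095 to 12798 bp, the range of the receptors other than *Cx3cr1*. Of these, 26.96% had a new PU.1 peak, against 8 of the 8 receptors, and 19.1% had a PU.1 peak of PU.1−, against 7 of 8. The windows of the 9 receptors had 5.52 PU.1 peaks per 100 kb in PU.1+ and 2.01 in PU.1−, which was 9.59-fold and 10.3-fold the density over the genome. For CEBPA the densities were 7.69 per 100 kb in PU.1− and 6.02 in PU.1+, 8.03-fold and 7.97-fold that of the genome. Relative to the whole genome the receptor loci were therefore dense in calls of both factors in both lines. The excess was of similar size with and without wild-type PU.1. The genome density was taken over all bases, stretches without genes included, so it is not a comparison with windows of other genes. The 9 genes were also chosen with earlier results of these data known.

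**Figure D2:**
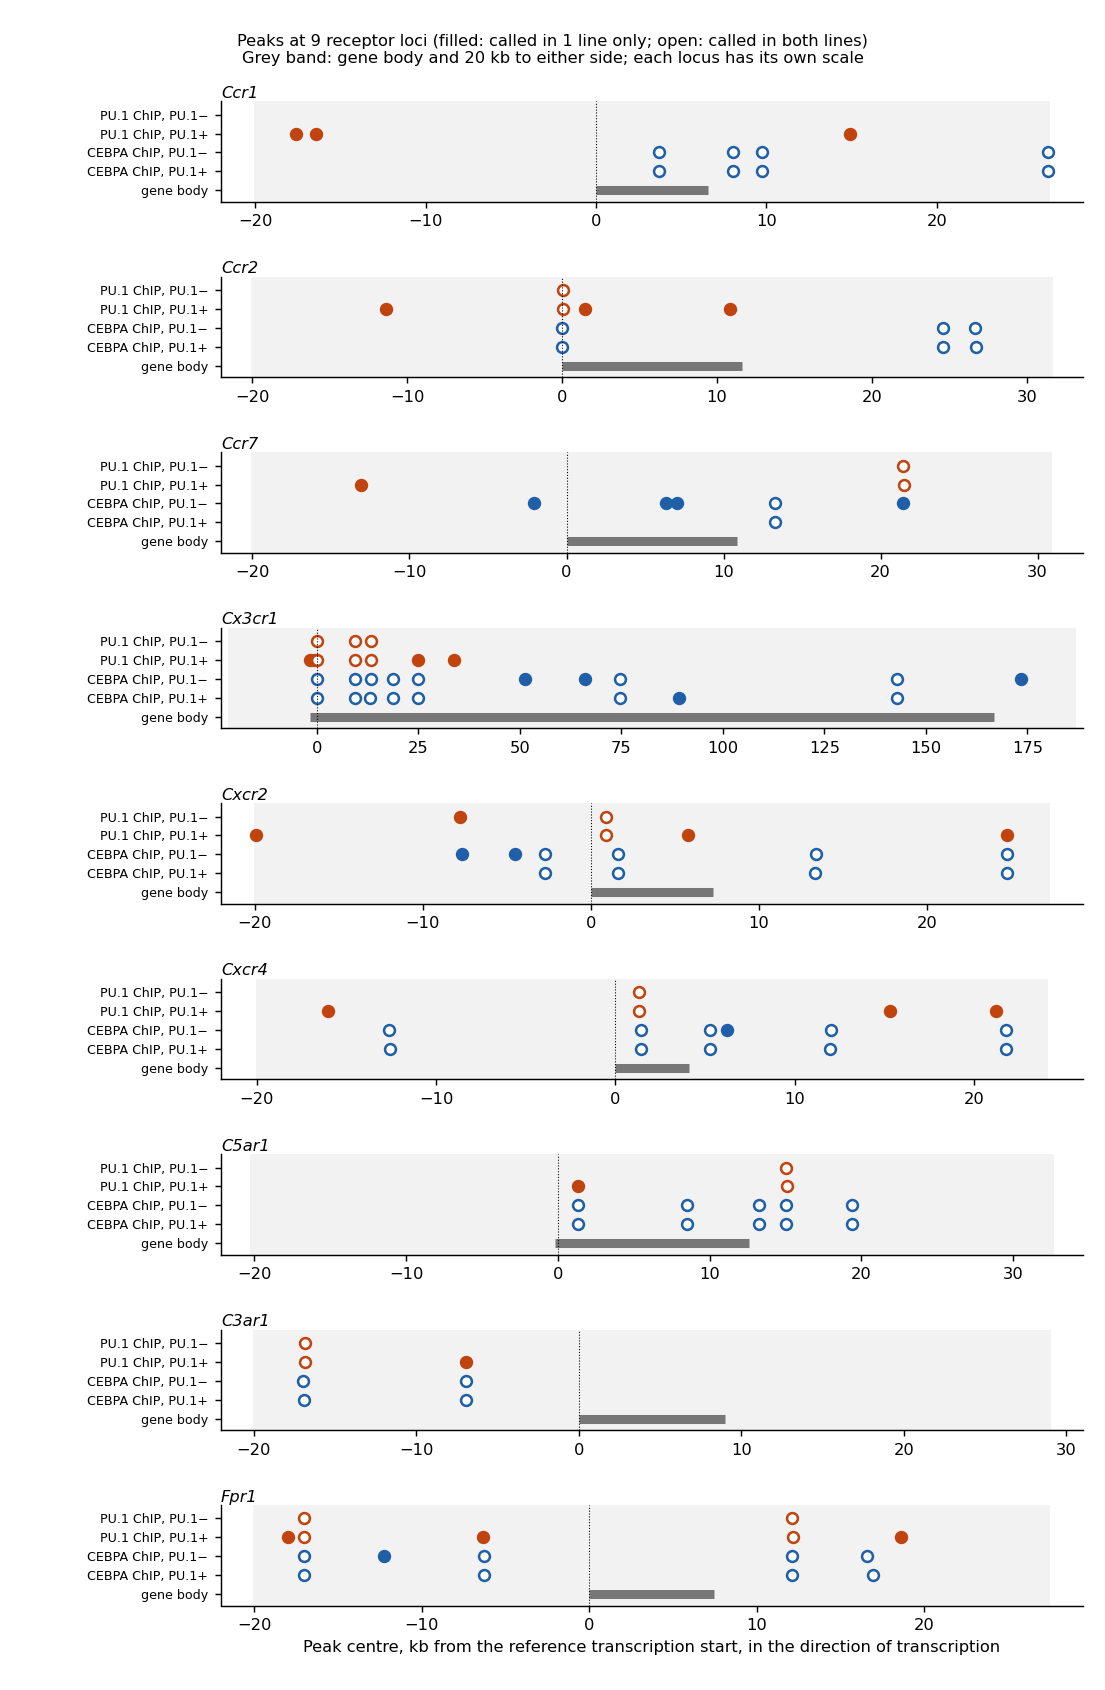
Positions of the peaks at each receptor locus, with the distance of the peak centre from the reference transcription start on the x axis (kb, in the direction of transcription, a separate scale for each locus) and 1 lane for each library; filled circles were called in 1 line only, open circles in both, and the grey band is the gene body with 20 kb to either side. Most filled PU.1 circles of PU.1+ lie away from the start, whereas *Ccr2* and *Cx3cr1* have open circles of all 4 libraries at it.

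Among the receptors for CC chemokines, *Ccr1* encodes a receptor for CCL3, CCL5 and related chemokines that is used by monocytes and neutrophils. The *Ccr1* locus (chr9:123962124-123968692, minus strand) had 0 PU.1 peaks in PU.1−, 3 in PU.1+, and 4 CEBPA peaks in each line. The 3 new PU.1 peaks were centred 14933 bp downstream of the start, beyond the 3′ end of the gene, and 16443 and 17595 bp upstream, where the neighbouring receptor gene *Ccr1l1* was nearer. None of them overlapped a CEBPA peak. The 4 CEBPA peaks, in an intron of the gene and downstream of it, were all shared, and 1 pair had identical coordinates in both lines. *Ccr1* was thus the only one of the 9 loci at which no PU.1 peak and CEBPA peak coincided in either line. The absence of a PU.1 call in PU.1− depends on the limit of 20 kb, since a PU.1 peak shared by both lines was centred just outside it, 20580 bp from the gene body in PU.1− and 20571 bp in PU.1+. On the inner side of the limit the farthest peaks were CEBPA peaks of *Ccr1* at 19936 and 19929 bp and a PU.1 peak of *Cxcr2* at 19911 bp.

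*Ccr2* encodes the receptor for CCL2 through which inflammatory monocytes leave the marrow. Its locus (chr9:124101950-124113557, plus strand) had 1 PU.1 peak in PU.1−, 4 in PU.1+, and 3 CEBPA peaks in each line. A site called in all 4 lists, chr9:124101731-124102205, covered the transcription start, with the PU.1 centres 53 and 56 bp downstream of it in PU.1− and PU.1+ and the CEBPA centres 19 and 2 bp upstream. The 3 new PU.1 peaks flanked this site, at 11333 bp upstream and at 1514 and 10820 bp downstream of the start, the last in an intron. No CEBPA peak was called under any of these 3. The remaining 2 CEBPA sites lay downstream of the gene and were shared.

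*Ccr7* encodes the receptor for CCL19 and CCL21, which guides dendritic cells and lymphocytes to lymph nodes. The *Ccr7* locus (chr11:99144196-99155077, minus strand) had 1 PU.1 peak in PU.1− and 2 in PU.1+. It had 5 CEBPA peaks in PU.1− but 1 in PU.1+. Of the 11 lost CEBPA peaks over all loci, 4 were at *Ccr7*: 1 at 2077 bp upstream of the start, 2 in the gene at 6338 and 7007 bp, and 1 at 21429 bp, downstream of the gene. This last peak shared 396 bp with the PU.1 peak of PU.1−. In PU.1+ the PU.1 call there was kept, with its centre 58 bp from that of PU.1−, and no CEBPA peak was called, a combination found at no other of the 65 merged sites of the 9 loci and at 0.476% of the 40138 merged sites of the genome. The new PU.1 peak of *Ccr7* was centred 13061 bp upstream of the start.

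*Cx3cr1*, the receptor for the membrane-bound chemokine fractalkine, had the most peaks of the 9 loci, with 3 PU.1 peaks in PU.1−, 7 in PU.1+, and 10 CEBPA peaks in PU.1− against 8 in PU.1+. Its annotated body (chr9:119901616-120069879, minus strand) is 168264 bp long because of a weakly supported transcript, and its window of 208 kb also takes in *Xirp1*, *Csrnp1* and *Gorasp1*. The best supported transcript is 19614 bp long. When the body was limited to that transcript the PU.1 counts over the 9 loci did not change, CEBPA peaks numbered 41 instead of 46 in PU.1− and 33 instead of 36 in PU.1+, and the only new CEBPA peak, in an intron of *Csrnp1*, was no longer counted. All 7 PU.1 peaks of *Cx3cr1* were therefore within 20 kb of that transcript. The 3 lost CEBPA peaks of the locus were farther away, at 51177 bp from the start in a coding exon of *Xirp1*, at 66135 bp, and at 173486 bp, where the start of *Wdr48* was 68 bp from the peak centre.

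At *Cx3cr1*, 3 sites were called in all 4 lists: one at the start, chr9:120067999-120068533, and 2 in introns, centred 9425 and 13324 bp downstream of it. At the start, the centre of the PU.1 peak was 8 bp downstream of the start in PU.1− and 97 bp downstream in PU.1+, the largest shift of a shared PU.1 peak at these loci. New PU.1 peaks flanked these sites, at 649 and 1659 bp upstream and at 24909 and 33782 bp downstream. The peak at 24909 bp lay on a CEBPA peak of both lines, and the other 3 lay on none. The peaks at 649 and 1659 bp were the only new PU.1 peaks at the 9 loci within 1000 bp of a transcription start of a protein-coding gene, the latter lying 76 bp from an alternative start of *Cx3cr1*.

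*Cxcr2* and *Cxcr4* encode receptors with opposed parts in granulocyte release, the first responding to CXCL1 and CXCL2 in the periphery and the second to CXCL12 in the marrow. *Cxcr2* (chr1:74153989-74161246, plus strand) had 2 PU.1 peaks in PU.1−, 4 in PU.1+, and 6 CEBPA peaks in PU.1− against 4 in PU.1+. It had the only site of the 9 loci at which both factors were called in PU.1− and neither in PU.1+, chr1:74146021-74146538, centred 7711 bp upstream of the start within the body of *Rufy4*. This pattern was found at 0.723% of all merged sites. Another lost CEBPA peak was nearer to the gene, at 4539 bp upstream. In an intron a PU.1 peak 917 bp from the start was shared, with no CEBPA peak under it. New PU.1 peaks were centred 19913 bp upstream, in *Rufy4*, and 5798 and 24769 bp downstream, and the last was on a shared CEBPA peak beyond the gene, on the side of *Cxcr1*. *Cxcr2* was thus the only locus at which PU.1 calls were both lost and gained.

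*Cxcr4* (chr1:128588199-128592293, minus strand) had 1 PU.1 peak in PU.1−, 4 in PU.1+, and 6 CEBPA peaks in PU.1− against 5 in PU.1+. Its site in all 4 lists, chr1:128590638-128591164, was in an intron, centred 1389 bp from the start. The PU.1 centres of the 2 lines were 1 bp apart there, and both peaks held GAGGAAGT, the longer PU.1-type word. The 3 new PU.1 peaks were centred 16005 bp upstream and 15340 and 21225 bp downstream, all outside the gene and off the CEBPA peaks. The lost CEBPA peak was 6240 bp downstream of the start.

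*C5ar1* and *C3ar1* encode the receptors for the complement fragments C5a and C3a. *C5ar1* (chr7:16246743-16259540, minus strand) had 1 PU.1 peak in PU.1−, 2 in PU.1+ and 5 CEBPA peaks in each line, all 5 shared. Its new PU.1 peak, in an intron 1337 bp from the start, shared 376 bp with a CEBPA peak present in both lines. The site in all 4 lists, chr7:16244050-16244494, lay downstream of *C5ar1*, and its peak centres were 96 to 141 bp from a transcription start of *C5ar2*, which encodes a second C5a receptor. *C3ar1* (chr6:122847138-122856161, minus strand) had 1 PU.1 peak in PU.1−, 2 in PU.1+ and 2 CEBPA peaks in each line, all upstream of the gene. The new PU.1 peak, centred 6935 bp upstream, shared 398 bp with a CEBPA peak whose coordinates were identical in both lines. The other site, chr6:122872806-122873297, was in all 4 lists and was centred 16891 bp upstream, with *Necap1* as its nearest gene. At both complement receptors every CEBPA call was kept and every PU.1 call in PU.1+ lay on a CEBPA call.

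*Fpr1* encodes a receptor for formylated bacterial peptides on phagocytes. Its locus (chr17:17876471-17883940, minus strand) had 2 PU.1 peaks in PU.1−, 5 in PU.1+, and 5 CEBPA peaks in PU.1− against 4 in PU.1+. Both PU.1− sites were in all 4 lists, one 12109 bp downstream of the start and the other 17024 bp upstream, within the body of *Fpr3*. New PU.1 peaks were centred 6344 bp upstream, in the body of *Fpr2*, 17986 bp upstream, in *Fpr3*, and 18598 bp downstream, towards *Has1*. The first was on a shared CEBPA peak and the others on none. No peak of any list had its centre in the *Fpr1* gene body, so at this locus all calls were between or within its neighbours, and none of the 3 new PU.1 peaks had *Fpr1* as its nearest gene.

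Over the 9 loci the new PU.1 peaks were mostly more than 5 kb from the reference start, as were peaks of the other classes. Of 22, 10 were upstream of the receptor gene, 5 downstream, 4 in introns and 3 in untranslated exons. The median distance from the reference start was 15136.5 bp (range 649 to 33782 bp), and 18 were more than 5 kb away. In PU.1+, 7 of the 11 shared PU.1 peaks and 28 of the 35 shared CEBPA peaks were also beyond 5 kb. A window of 20 kb to either side of the gene holds mostly such positions. The share beyond 5 kb over all new peaks was not computed. Within 1000 bp of a protein-coding transcription start were 2 of the 22 (9.09%, 1.12–29.2%), against 8.60% of all new PU.1 peaks. Of the 11 shared PU.1 peaks 4 were there (36.4%, 10.9–69.2%), at *Ccr2*, *Cx3cr1*, *Cxcr2* and, downstream of *C5ar1*, at *C5ar2*, against 15.0% of all shared peaks.

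When the peaks of the 4 lists were merged, they formed 65 sites at the 9 loci. Sites with CEBPA in both lines and no PU.1 call were the most frequent (21, 32.3%, 21.2–45.1%, against 33.6% of all merged sites), followed by new PU.1 peaks without CEBPA (17, 26.2%, 16.0–38.5%, against 23.6%). Sites called in all 4 lists numbered 9 (13.8%, 6.53–24.7%, against 4.01%), at *Ccr2*, *Cx3cr1* (3 sites), *Cxcr4*, *C5ar1*, *C3ar1* and *Fpr1* (2 sites). Sites with lost CEBPA and no PU.1 also numbered 9 (against 18.1%). A new PU.1 peak on a CEBPA peak of both lines was found at 5 sites (7.69%, 2.54–17.0%, against 5.10%). No site at these loci gained PU.1 and CEBPA together (0 of 65, which allows a share of up to 4.62% by 3 counts and up to 5.52% by the exact interval), and 2.26% of all merged sites did. The share of sites in all 4 lists was the only one of these whose interval excluded the share over the genome.

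**Figure D3:**
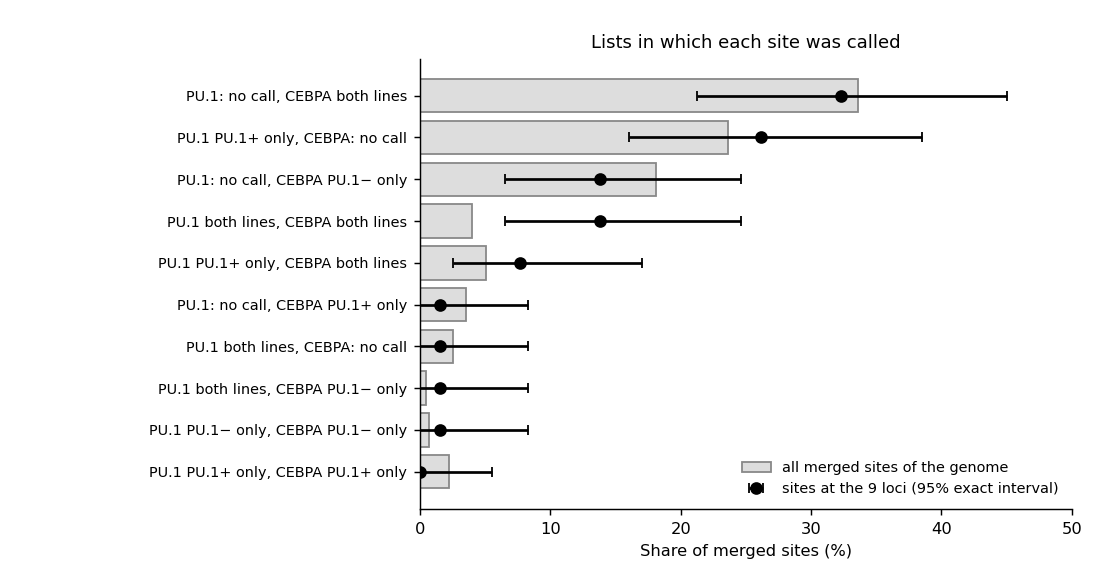
Share of merged sites (x axis, %) for each combination of lists in which a site was called (y axis). Points with exact 95% intervals are the 65 sites at the 9 loci and grey bars are all 40138 merged sites; the point for sites called in all 4 lists, at 13.8%, lies above its bar at 4.01%.

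PU.1 and CEBPA calls coincided more often among the shared PU.1 peaks than among the new ones. In the PU.1− line, 11 of 12 PU.1 peaks at the loci overlapped a CEBPA peak of the same line (91.7%, 61.5–99.8%, against 57.6% of all PU.1− peaks). In PU.1+, 14 of 33 did (42.4%, 25.5–60.8%, against 29.8%), made up of 9 of the 11 shared peaks (against 58.2% of all shared peaks) and 5 of the 22 new peaks (22.7%, 7.82–45.4%, against 23.2% of all new peaks). The new peaks were therefore on CEBPA calls about as often as new PU.1 peaks in the genome. At the 5 new sites the centres of the PU.1 and CEBPA peaks were 2 to 33 bp apart (median 20 bp), and at the 9 shared sites 3 to 135 bp (median 71 bp). Over all peaks the medians were 55 bp for new and 45.5 bp for shared PU.1 peaks on a CEBPA peak, so the order of the 2 classes at the receptor loci was the reverse of that in the genome. The difference was not tested, and 5 and 9 sites are few.

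The ETS words in the central 80 bp of the PU.1 peaks occurred at shares whose intervals included those of the whole lists. GGAAGT was in the central 80 bp of 16 of the 33 PU.1 peaks of PU.1+ (48.5%, 30.8–66.5%), against 43.5% of all PU.1+ peaks and 4.44% of 80-bp windows 2000 bp to either side of all peaks. In PU.1− it was in 6 of 12 (50.0%, 21.1–78.9%), against 36.5% and 4.60%. The longer GAGGAAGT, which contains GGAAGT, was in 3 of 33 in PU.1+ (9.09%, 1.92–24.3%), against 15.2%. CAGGAAGT or CCGGAAGT, which also contain it and are of the type bound by ETS1, were in 3 of 33 (against 6.43%), at *Ccr7* and at 2 sites of *Cx3cr1*, and all 3 peaks were shared. Split by class, GGAAGT was in 8 of the 22 new PU.1 peaks (against 42.9% of all new peaks) and in 8 of the 11 shared ones (against 46.1%).

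Because several of the printed sequences without GGAAGT held GAGGAA, this shorter word, which ends before the GT of the PU.1-type site, was counted after the sequences had been seen. It was in 9 of the 22 new peaks (40.9%, 20.7–63.6%), against 44.2% of all new PU.1 peaks and 7.35% of their flanking windows. Either word was in 14 of 22 (63.6%, 40.7–82.8%), against 65.1% of all new peaks and 11.1% of flanking windows. Of the 5 new PU.1 peaks on CEBPA peaks, 0 held GGAAGT, 3 held GAGGAA and 2 held the CEBP word. Of the 17 off CEBPA peaks, 8 held GGAAGT, 6 held GAGGAA and 0 held the CEBP word. Over all new PU.1 peaks, GGAAGT was in 34.7% on and 45.3% off CEBPA peaks. The CEBP word was in 14.7% and 3.80%, and GAGGAA in 38.6% and 45.9%. For GGAAGT and the CEBP word the difference at the receptor loci had the direction seen in the whole list. For GAGGAA it had the reverse direction. These differences were not tested, and the peaks at the loci are few.

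Under the CEBPA peaks, TTGCNNAA was in 17 of 36 in PU.1+ (47.2%, 30.4–64.5%, against 38.2% of all and 3.25% of flanking windows) and in 18 of 46 in PU.1− (39.1%, 25.1–54.6%, against 35.6% and 3.27%). It was in 3 of the 11 lost CEBPA peaks, at *Ccr7*, *Cxcr2* and *Fpr1*, against 28.3% of all such peaks. A RUNX word was in 8 of 36 CEBPA peaks in PU.1+ (22.2%, 10.1–39.2%, against 12.7%) and in 10 of 46 in PU.1− (21.7%, 10.9–36.4%, against 13.5%). In the central 80 bp the interval at the receptor loci included the share of the whole list for both words. In longer stretches it did not for RUNX. In the central 200 bp a RUNX word was in 23 of 46 CEBPA peaks in PU.1− (50.0%, 34.9–65.1%, against 27.9%) and in 17 of 36 in PU.1+ (47.2%, 30.4–64.5%, against 26.7%), and over the whole peak in 28 (60.9%, 45.4–74.9%, against 41.0%) and 21 (58.3%, 40.8–74.5%, against 39.6%). In each stretch, the central 80 bp included, the RUNX share under the CEBPA peaks of these loci was above that of the list. Whether the excess lies away from the peak centres was not tested. Most of these CEBPA peaks are shared, so the values of the 2 lines are not independent. A word under a peak is a description of the sequence and does not show which protein was bound.

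**Figure D4:**
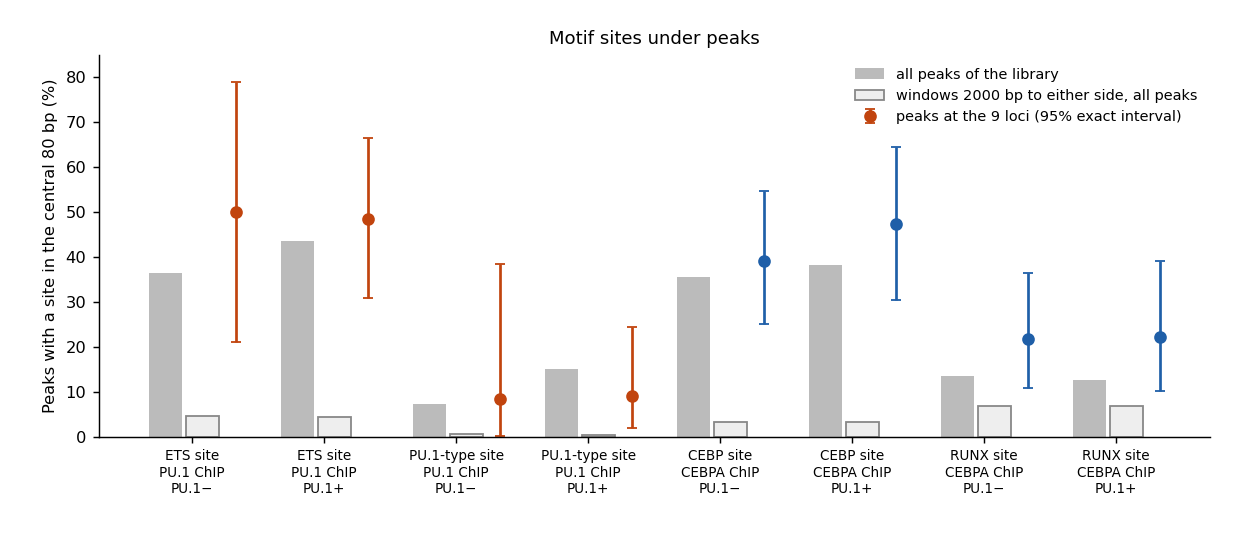
Share of peaks (y axis, %) with an ETS (GGAAGT), PU.1-type, CEBP or RUNX word in the central 80 bp, by library (x axis). Points with exact 95% intervals are peaks at the 9 loci, dark bars all peaks of the library and light bars windows 2000 bp to either side; each interval includes the dark bar beside it in this 80-bp window.

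Genes that act beside these receptors were read by the same 20-kb rule. Of 26 other chemoattractant receptors, 18 had a new PU.1 peak. The windows of 7 of the 26 overlap those of the 9 loci. Several of these windows, among them those of *Ccr1l1*, *Cxcr1*, *C5ar2*, *Fpr2* and *Fpr3*, count some of the same peaks. Some of the 19 that stand apart from the 9 loci are neighbours of each other, and their windows can share peaks. Of these 19, 12 (63.2%) had a new PU.1 peak, against 36.7% of all genes. A PU.1 peak of PU.1− was at 5 (26.3%), against 23.7%. The most new PU.1 peaks were at *Cxcr5*, the CXCL13 receptor of B cells (5), and at *Ccr6*, the CCL20 receptor (4). At *Ccr6*, 2 CEBPA peaks were called in PU.1− and 0 in PU.1+. *Ccr3*, the eotaxin receptor, and *Ccr1l1* had 3 each, and *Ccrl2*, which binds chemerin without signalling, had 2.

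Of 20 ligands of the 9 receptors, 13 (65.0%) had a new PU.1 peak, against 36.7% of all genes. The most were at *Ccl6* (5) and *Ccl9* (4), both mouse ligands of CCR1, and at *C3* (3), the source of C3a. *Ccl3*, *Ccl4* and *Ccl5* had 2 each. The *Ccl* genes named here are neighbours on chromosome 11 and their windows can share peaks. Other genes among the ligands are also neighbours of each other, with the same limit.

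Of 19 genes that carry the signal below the receptors, 17 (89.5%) had a new PU.1 peak, against 36.7% of all genes, and 10 (52.6%) had a PU.1 peak of PU.1−, against 23.7%. A CEBPA peak of PU.1− was at 16 (84.2%, against 56.5%) and one of PU.1+ at 18 (94.7%, against 51.3%). The bodies of these genes had a median of 22753 bp and reached 557078 bp, against a median of 17403 bp for all protein-coding genes. Their shares were not adjusted for length, and windows of neighbouring genes in the list can share peaks. *Arrb1*, which encodes a beta-arrestin that desensitises the receptors, had 5 new PU.1 peaks. *Gnai2* and *Gnai3* (Gi alpha subunits), *Grk2* (a receptor kinase), *Pik3r5* (a regulatory subunit of phosphoinositide 3-kinase gamma) and *Rac2* had 4 each. A new CEBPA peak was at 11 of the 19 signalling genes (57.9%) and at 1 of the 9 receptors, against 11.4% of all genes. The gene whose 4 peak counts were nearest to those of *Cx3cr1* was *Tbc1d2b*, with 3 peaks for PU.1 and 10 for CEBPA in the PU.1− line and 6 and 8 in the PU.1+ line, a Euclidean distance of 1 over the 4 lists. The *Cx3cr1* counts were those of its 208-kb window, which includes CEBPA peaks at neighbouring genes. The match was not repeated with the shorter body.

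**Figure D5:**
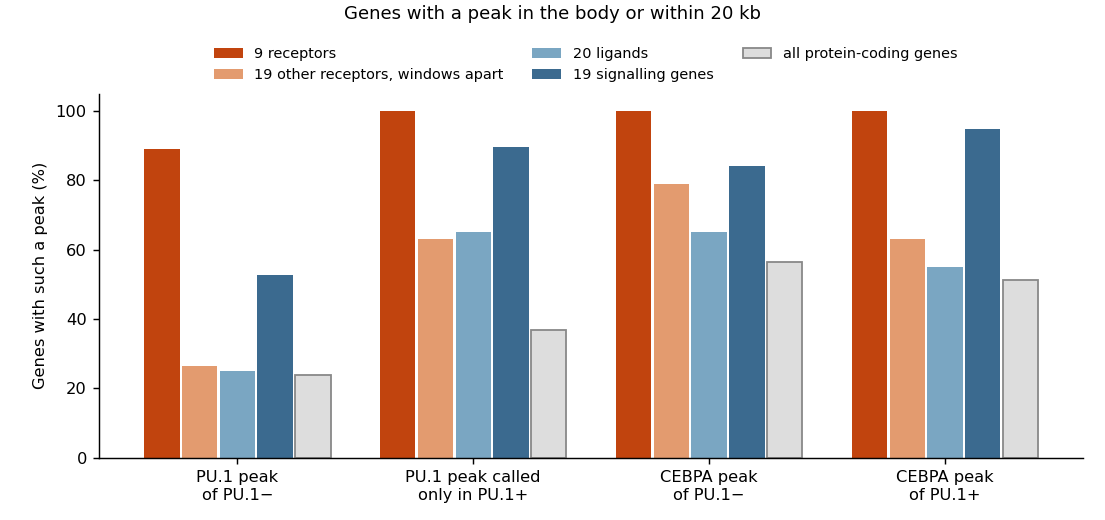
Share of genes (y axis, %) with a peak of each kind (x axis) in the body or within 20 kb, for the 9 receptors, 19 other chemoattractant receptors whose windows are apart from theirs, 20 ligands, 19 signalling genes and all protein-coding genes (grey). The receptor bars stand at 88.9% for PU.1 peaks of PU.1− and at 100% for the other kinds, and the grey bars between 23.7% and 56.5%.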

How the data were processed

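ChIP-Seq for PU.1 and CEBPA was performed in 2 clonal lines, with 1 library for each antibody and line. According to the submitters' processing notes and the paper, the authors aligned the reads to the mm10 genome using Bowtie2 2.0.6 and called peaks with MACS2 2.0.10. The deposited lists hold peak coordinates only, and the calling threshold is not given in the sources used here. Samples for H3K27Ac and IgG were not used here. The 9 genes, the gene lists and the named genes were chosen with earlier results of these data known.

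Peak centres were assigned to GENCODE release 21 genes (body and 20 kb to either side). Named from the lists were up to 6 genes richest in new PU.1 peaks, the nearest genes of member peaks, and the gene most like the receptor with the most peaks, and 1 gene that this rule names is not reported here. Distances were taken from the start of a reference transcript of each gene. Overlaps needed 1 bp. Sites were peaks of all lists merged at any overlap. Motifs were matched exactly on both strands in GRCm38 sequence (central 80 bp). The alternatives were windows of 10 and 50 kb, any overlap with the window, nearest gene only, an overlap of 50%, centres within 100 bp, the central 200 bp and the whole peak. A shorter *Cx3cr1* body and the word GAGGAA were added after seeing the data. Overlap, assignment and motif steps were tested on simulated data. The tools were samtools 1.23.1, pysam 0.24.0, scipy 1.17.1, Python 3.11.15, matplotlib 3.10.9, pandas 2.3.3 and numpy 2.4.6.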

Additional observations from a re-analysis of the deposited data

How the results depend on the processing

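Of 76 values recomputed under the alternatives, 62 stayed within 1.5 times the reported count. Within 10 kb, PU.1 peaks in PU.1+ were 19 and those called only there 11, at 7 of the 9 receptors (not *Ccr7* or *Cxcr4*). Within 50 kb, PU.1− had 20 PU.1 peaks, 3 of them called only there, 17 PU.1 peaks were shared and 4 CEBPA peaks were called only in PU.1+. That last count was 3 with an overlap of 50% and 3 with centres within 100 bp, and 0 with the shorter *Cx3cr1* body, chosen after seeing the data. GAGGAA in place of GGAAGT, likewise chosen later, was in 3 PU.1 peaks of PU.1−. RUNX words were in 23 CEBPA peaks of PU.1− and 17 of PU.1+ in the central 200 bp, and in 28 and 21 over the whole peak. When a peak counted only for its nearest gene, 8 of 9 receptors had a new PU.1 peak (not *Fpr1*). Depth is unknown and the lists carry no scores, so a stricter calling threshold could not be tried. No paired analysis was possible because each antibody and line had 1 library and no test was made.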
